A study of Mus musculus with 22 samples.

Results

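RNA polymerase II (PolII) was profiled by ChIP-seq in mouse cells arrested in prometaphase and at 3 times after their release into G1, and 985 regions over coding gene starts gave a peak already in prometaphase. The peaks of all 18 PolII lists were merged where they shared at least 1 bp, which gave 169903 regions, and 7882 of these held the start of at least 1 protein-coding gene. The 985 regions described here, called the mitotically detected regions, were those among the 7882 that a peak overlapped in at least 3 of the 4 prometaphase lists. Of these, 664 were detected in all 4 lists and 321 in 3, and together they held the starts of 1288 coding genes. The regions were thus chosen by their prometaphase peaks, so their prometaphase values are given as a description and were not tested.

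The cells were the CTCF-AID subline of G1E-ER4, which the study calls a murine erythroblast line. The study states that the ability of G1E-ER4 to differentiate along the erythroid path on induction is regularly checked. No such induction is named in the labels. All groups share this genotype: both Ctcf alleles carry an auxin-inducible degron and mCherry, and a TIR construct, which lets auxin direct the tagged CTCF to degradation, was introduced by transduction. Every group was arrested with nocodazole and collected at 0 h (prometaphase), 1 h (early-G1), 2 h (mid-G1) or 4 h (late-G1) after its removal, without auxin (control) or with auxin, as 2 libraries per group or 3 in mid-G1. The study's reporting summary names a late-G1 control replicate 1 among its peak lists and no late-G1 auxin replicate 1. Its read files and the labels name the reverse, and the labels were followed here. The cells were sorted by DNA content, by a mitotic marker in prometaphase and by mCherry. The study calls the libraries of a group biological replicates, and the labels used here only number them, so the p-values measure the spread between these libraries. CTCF protein cannot be read from PolII peaks, so the depletion itself was not checked here.

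PolII is the enzyme that transcribes protein-coding genes, and on many of them it gathers just downstream of the start before it elongates. In mitosis transcription is largely shut down and most of the enzyme leaves the condensing chromosomes, and it is loaded again as the daughter cells enter G1. The mitotically detected regions are therefore the places where enrichment could still be called in arrested cells, and G1 libraries show how the same places stand once transcription has resumed.

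Each deposited peak carries a fold enrichment, the pileup of fragments at its summit over the local background, and the highest fold enrichment in a region is the value used here. Prometaphase libraries held 2414 to 3918 peaks and the 14 post-mitotic libraries 50594 to 117125, at an estimated 4.54 to 13.3 fragments per kb. A region without a prometaphase peak is one below the peak caller's threshold, which does not show that PolII was absent. Of 14 markers of erythroid cells and progenitors, 12 had their start in a region of every post-mitotic library and 7 in a region of at least 3 prometaphase lists, while 18 markers of other cell types had their start in no region. Late-G1 control replicate 3 stood apart, since 52.4% of the mitotically detected regions there had a pileup above the midpoint of the highest pileup that reads without duplicates allow, against 1.83% to 23.1% in the other post-mitotic libraries and 0% in prometaphase.

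The label of these regions held for most but not all. The median prometaphase summit lay within 500 bp of a coding gene start in 735 regions (74.6%), inside a coding gene in 141 (14.3%) and outside coding genes in 109 (11.1%). A prometaphase peak lay over the annotated start itself in at least 1 list in 706 regions (71.7%), and in at least 3 lists in 428. The regions were wide because all 18 lists built them, so a start and a summit several kb away could fall in one region. Where the summit was within 500 bp of a start, it lay a median 56 bp downstream of it, and the post-mitotic summit of the same regions lay a median 44 bp downstream. Over all 985 the median distance between the prometaphase and the post-mitotic summit was 60 bp, with 732 regions at 250 bp or less and 127 over 1000 bp.

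In 21 regions a small RNA gene lay within 500 bp of the prometaphase summit, and 8 of these had no coding start that near. The region of Refbp2 and B930036N10Rik, second in prometaphase, had its summit at -915 bp from the Refbp2 start (upstream), beside a U5 spliceosomal RNA gene. That of Zbtb37, the third, lay at -2918 bp, beside the small nucleolar RNA genes SNORD77, SNORD79 and Snord47. That of 2900060B14Rik, the tenth, lay at -220 bp from its start, beside U4atac. Peaks of this kind can belong to the small RNA gene, to its host transcript or to the coding gene, and these lists do not separate them.

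The promoters of 7 genes are printed to show the sequence just before their starts: Srsf3, first in prometaphase, Polr2a and Hist1h1e, among the strongest after mitosis, Top2a, Cenpf and Ccnb2 of the mitotic machinery, and Nop58, among the largest falls through G1. For Srsf3, Polr2a and Top2a the prometaphase summit lay 28, 81 and 30 bp downstream of the start, so outside these bases. For Cenpf and Nop58 it lay at -13 and -6 bp, inside them. In the region of Hist1h1e it lay 33 bp from the Hist1h2be start. Each printed promoter is the 250 bases before the annotated start, read 5′ to 3′ on the gene's strand from the mm9 reference (NCBIM37), with coordinates in that build. Capitals mark matches, on either strand, to any of 12 motifs: the TATA box, TATAAA, and the CCAAT box, CCAAT, and the GC box, GGGCGG, and the ETS site, CCGGAAG, and the NRF1 site, GCGCATGCG, and the YY1 site, AAGATGGCG, and a palindrome with a CG core, TCTCGCGAG, and the cAMP response element, TGACGTCA, and the E-box, CACGTG, and the E2F site, TTCCCGC, and a part of the CTCF motif, AGGGGGCGC, and the CHR element (cell cycle genes homology region), TTTGAA, which was added after the values were seen. GC box and E2F letters can overlap.
Srsf3 (chr17:29169368-29169617, plus strand): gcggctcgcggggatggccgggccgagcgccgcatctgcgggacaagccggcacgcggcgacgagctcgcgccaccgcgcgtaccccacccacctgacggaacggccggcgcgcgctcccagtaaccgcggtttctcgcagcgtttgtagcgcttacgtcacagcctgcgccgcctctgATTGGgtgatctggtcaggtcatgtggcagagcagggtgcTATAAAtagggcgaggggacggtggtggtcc
Polr2a (chr11:69572140-69572389, minus strand): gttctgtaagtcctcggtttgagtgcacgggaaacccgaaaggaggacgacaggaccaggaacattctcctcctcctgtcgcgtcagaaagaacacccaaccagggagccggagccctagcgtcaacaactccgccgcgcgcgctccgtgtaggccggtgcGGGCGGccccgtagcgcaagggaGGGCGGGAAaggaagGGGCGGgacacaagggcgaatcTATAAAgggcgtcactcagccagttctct
Hist1h1e (chr13:23714372-23714621, minus strand): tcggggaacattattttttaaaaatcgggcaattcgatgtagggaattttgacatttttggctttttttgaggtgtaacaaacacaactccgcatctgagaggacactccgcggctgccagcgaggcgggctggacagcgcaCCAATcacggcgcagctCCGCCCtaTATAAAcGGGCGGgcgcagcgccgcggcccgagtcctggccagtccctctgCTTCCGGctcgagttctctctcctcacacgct
Top2a (chr11:98885504-98885753, minus strand): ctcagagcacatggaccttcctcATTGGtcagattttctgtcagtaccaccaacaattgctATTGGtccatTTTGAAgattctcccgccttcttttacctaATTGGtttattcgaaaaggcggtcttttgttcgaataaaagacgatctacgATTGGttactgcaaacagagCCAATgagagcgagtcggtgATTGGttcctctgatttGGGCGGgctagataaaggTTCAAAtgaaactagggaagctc
Cenpf (chr1:191511966-191512215, minus strand): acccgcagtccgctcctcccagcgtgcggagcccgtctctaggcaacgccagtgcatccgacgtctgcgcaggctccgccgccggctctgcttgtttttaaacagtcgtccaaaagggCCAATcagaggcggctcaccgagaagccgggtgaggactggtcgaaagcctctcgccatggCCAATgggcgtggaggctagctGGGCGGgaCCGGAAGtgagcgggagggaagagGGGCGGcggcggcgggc
Ccnb2 (chr9:70269362-70269611, minus strand): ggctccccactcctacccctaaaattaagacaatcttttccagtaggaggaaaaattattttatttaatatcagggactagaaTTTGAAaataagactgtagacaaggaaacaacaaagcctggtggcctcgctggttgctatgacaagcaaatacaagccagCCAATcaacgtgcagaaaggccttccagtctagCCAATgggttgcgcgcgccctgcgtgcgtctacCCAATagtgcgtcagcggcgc
Nop58 (chr1:59741603-59741852, plus strand): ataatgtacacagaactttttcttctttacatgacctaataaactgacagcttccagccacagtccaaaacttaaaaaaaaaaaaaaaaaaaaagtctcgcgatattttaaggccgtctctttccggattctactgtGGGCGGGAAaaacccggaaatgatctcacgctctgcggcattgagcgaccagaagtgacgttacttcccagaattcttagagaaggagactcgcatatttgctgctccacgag

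Top2a held 6 CCAAT boxes and 2 CHR elements in these 250 bases, Ccnb2 held 3 CCAAT boxes and 1 CHR element, and Cenpf held 2 CCAAT boxes. The CCAAT box is the site of NF-Y and, together with the CHR element, is a known feature of genes expressed in G2 and mitosis. Over the 15 mitotic machinery genes of the mitotically detected regions, 13 promoters held a CCAAT box and 7 a CHR element, and over all 22380 coding genes 35.0% and 14.8% did. Among the 46 histone genes of these regions, 40 promoters held a CCAAT box, 20 a CHR element and 24 a TATA box. Srsf3 and Polr2a each held a TATA box, 31 and 29 bp before the start, and Hist1h1e held one 83 bp before it. These are matches of letters and not measured sites.

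Over all 985 regions, taking the promoter of one gene each, 9.54% held the TATA box against 5.27% of the 5905 other coding regions detected in every post-mitotic library and 12.3% of all coding genes. The CCAAT box was held by 43.1% against 37.2% of those other regions, the cAMP response element by 4.87% against 2.90%, the palindrome with a CG core by 2.84% against 1.19%, and the GC box by 58.1% against 60.8%. The part of the CTCF motif was held by 1.32% against 2.07%. The ratio of observed to expected CpG had a median of 0.814 in these regions, 0.745 in the other coding regions and 0.496 over all coding genes, with a median GC content of 59.2%, 59.6% and 54.0%. The mitotically detected regions also held shorter genes, with a median gene length of 13504 bp against 22489 bp and 24.6% against 11.7% under 5 kb. Of the 985 regions, 262 (26.6%) held at least 2 coding starts against 13.5% of the others, and 12.3% against 7.87% held a divergent pair within 1000 bp. They were wider, with a median width of 4643 bp against 1980 bp, and a wider region has more room for a second start, a part that was not tested. The widest were those of Dhx9 at 48483 bp, Bzrap1 at 45318 bp and Mrpl24 at 43133 bp, the last holding 4 coding starts, as did those of Ndufaf3 and Zfp668.

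In prometaphase the strongest region was that of Srsf3, which encodes an SR protein that regulates splicing. Its fold enrichment was 51.4 and 58.2 in the control libraries and 55.5 and 53.5 with auxin, so the conditions overlapped. Srsf7, another SR protein gene, gave 54.7 and 51.6 in control and 46.7 and 41.2 with auxin. Txnip, whose product binds thioredoxin and limits glucose uptake, gave 44.0 and 50.4 in control and 41.4 and 45.9 with auxin. The other regions among the 12 strongest, besides those beside small RNA genes, were those of Rdm1, Eapp, Bzrap1, Mat2a, Brd2 and the histone pair Hist1h3c and Hist1h2bb, with library values between 28.8 and 50.6. Mat2a encodes the enzyme that makes S-adenosylmethionine and Brd2 a BET bromodomain protein. For Eapp, Bzrap1 and Rdm1 the summit was at -1620 bp, -4875 bp and 974 bp from the gene's start, where negative distances are upstream.

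The median fold enrichment over the regions detected in a library was between 8.63 and 9.29 in the 4 prometaphase libraries. At the edge of the rule, the weakest regions detected in 3 lists were those of Cdc25c, Nedd4 and Tnfrsf12a, with a mean over those lists of 5.22, 5.27 and 5.43. The strongest coding regions detected in only 2 lists, and so left out, were those of Parp9 and Dtx3l, of Degs1 and of Mut and Cenpq, at 11.4, 11.1 and 9.99. Parp9 and Dtx3l were detected in both auxin lists, at 11.0 and 11.8, and in neither control list. Of the 321 regions in 3 lists, the missing list was auxin replicate 2, the one with the fewest peaks, for 149.

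Between conditions in prometaphase, the 664 regions detected in all 4 lists had a median log2 ratio of auxin over control of -0.09, with 5% to 95% of regions between -0.57 and 0.36. The median absolute log2 ratio was 0.26 between the control replicates, 0.25 between the auxin replicates and 0.18 between the means of the conditions. Both auxin libraries lay above both control libraries in 79 regions and below both in 161. With 2 libraries per condition such separation often arises without a difference, and the share over other regions was not counted. The order of the regions was alike in all 4 libraries, with Spearman coefficients between 0.776 and 0.802 over the 664 regions, a description of libraries that share regions chosen for detection in them.

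**Figure D1:**
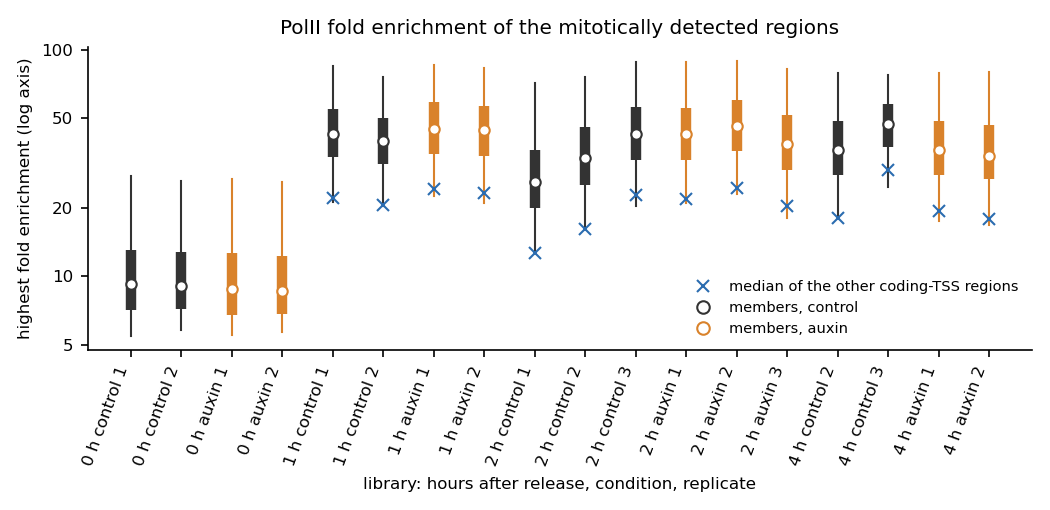
Highest PolII fold enrichment (log axis) of the mitotically detected regions in each of the 18 libraries, by hours after release, condition and replicate, as the 5% to 95% range, the quartiles and the median, with crosses for the median of the other coding regions. Medians of the mitotically detected regions lie between 8.63 and 9.29 at 0 h and between 26.1 and 47.3 afterwards, where those of the other coding regions lie between 12.7 and 29.7.

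After mitosis nearly all of these regions were detected throughout and most were among the strongest coding regions of the cells. A peak was present in all 14 post-mitotic libraries for 982 of 985. The exceptions were all genes of cell division: Cenpf, a kinetochore protein gene, with a peak in 6 of the 14 libraries, and Ect2, which acts in cytokinesis, and Cdc25c, a phosphatase that activates Cdk1, each in 13. The median fold enrichment over detected regions rose from the prometaphase values above to between 26.1 and 47.3 in the post-mitotic libraries, where the other coding regions had medians between 12.7 and 29.7. Fold enrichment depends on each library's depth and background, so this rise is a description of the lists.

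Coding regions detected in all 14 libraries numbered 6887, and mitotically detected regions were 14.3% of them. Ordered by the geometric mean of their ranks over the 14 libraries, the strongest 100 coding regions were all mitotically detected, as were 415 of the strongest 500 (83.0%) and 639 of the strongest 1000 (63.9%). The count among the strongest 100 was 100 in early-G1, in mid-G1 and in late-G1, with and without auxin, and among the strongest 500 it was 391, 406 and 399 in these stages. Only 54 of the mitotically detected regions lay below the median of the 6887. Each value is the highest in its region, and these regions were wider, with medians of 4643 bp against 1980 bp. The part of width in these counts was not tested. The strongest coding regions without any prometaphase peak were those of Slc26a8 and Mapk14 and of Rcl1, in places 257 and 343.

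**Figure D2:**
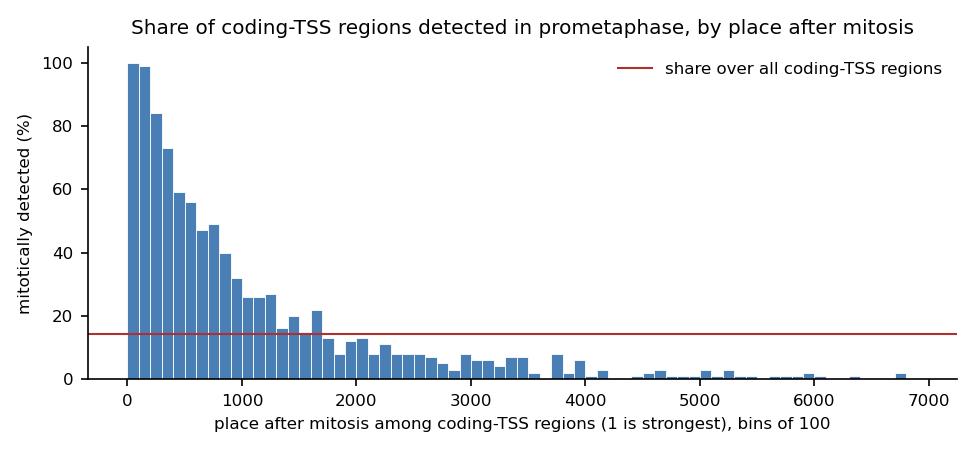
Share of coding regions that were mitotically detected (%), in bins of 100 places, against the place over the 14 post-mitotic libraries, where 1 is the strongest. The first bin is at 100%, and the share over all 6887 regions is 14.3%.

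Regions stronger in prometaphase also stood higher afterwards. When the 985 were ordered by prometaphase rank and split into 4 groups of 246 or 247, the median place after mitosis was within the strongest 1.91% of coding regions for the first group, then 7.39%, 12.5% and 18.4%. The median widths of these groups were 6777, 4764, 3816 and 3800 bp, and the part of width was not tested. The Spearman coefficient between prometaphase and post-mitotic rank was 0.643 over 982 regions. It is a description, since prometaphase peaks also chose the regions. Some regions departed from this order and were chosen for naming after their values were seen. From prometaphase to the post-mitotic order, 20 of the 985 moved at least 4 times further down, among them Srsf3 (from place 1 to 134), Egr1 (80 to 567), Top2a (86 to 673), Fam83d (105 to 816), Kif18b (135 to 967) and Cenpf (238 to 985), and 13 moved at least 4 times further up, among them Hist1h1d (18 to 1), Polr2a (21 to 5), Car2 (397 to 85), Taf12 (638 to 132) and Cited4 (874 to 142). Srsf3 was at 73.4 to 79.2 in the 4 early-G1 libraries, 43.8 to 62.1 in the 6 mid-G1 libraries and 50.5 to 77.0 in the 4 late-G1 libraries, well above prometaphase in early-G1 but overlapping it in the later stages. Polr2a, the gene of the largest PolII subunit, went from 29.2, 30.0, 48.5 and 31.5 in prometaphase to between 86.7 and 111 in all 14 later libraries. Car2, the erythroid carbonic anhydrase, had no peak in prometaphase control replicate 2 and 8.40, 10.4 and 8.21 in the other lists, and then 53.6 to 83.0.

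**Figure D3:**
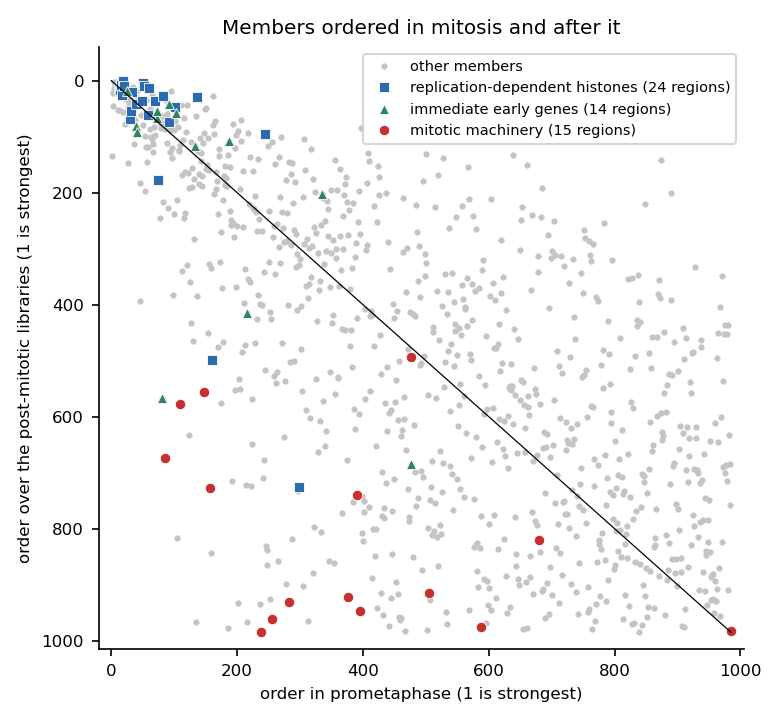
Order of the mitotically detected regions in prometaphase (horizontal) against their order over the post-mitotic libraries (vertical), where 1 is the strongest, with histone, immediate early and mitotic machinery regions marked and the line of equal order drawn. The vertical axis has 1 at the top. Mitotic machinery regions lie below the line in 14 of 15 cases, so they stand further down after mitosis. Their median order is 376 in prometaphase and 914 afterwards.

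Genes of ribosomal proteins, histones and the immediate early response were covered almost completely. Of 71 cytosolic ribosomal protein genes detected in all post-mitotic libraries, 69 lay in mitotically detected regions, all but Rpl22 and Rpl13a, at a median order of 226 in prometaphase and 236 afterwards. All 46 detected replication-dependent histone genes lay in these regions, in 24 of them, at a median order of 51.5 and 32.5. Of 15 detected immediate early genes, 14 were included, all but Srf, at a median order of 86 and 86.5. By comparison, 1285 of the 8020 coding genes whose start lay in a region of all 14 libraries were included, which is 16.0%. Of the splicing regulators of the Srsf and Hnrnp families 17 of 23 were included, of glycolytic and cytoskeletal genes 13 of 18, and of heat shock and chaperone genes 8 of 15. Lists with a lower cover were the nuclear-encoded genes of oxidative phosphorylation at 17 of 80, the translation factors at 12 of 53, the subunits of PolII, general factors and Mediator at 11 of 64, and the proteasome at 4 of 36. The lists were written with earlier results of these data known, and many of their genes are strongly expressed, so the counts describe which genes lie here.

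In the mitotically detected regions of blood lineage regulators the prometaphase signal mostly lay away from the gene start. Of 17 detected genes on that list, 7 lay in mitotically detected regions, and Nfe2l2, Kit, Etv6, Cbfa2t3, Epor, Fli1, Myb, Ikzf1, Runx1 and Ldb1 did not. For 6 of the 7 no prometaphase list had a peak over the annotated start, and the summit was kilobases downstream: 15630 bp for Tal1, 14961 bp for Gfi1b, 13682 bp for Gata2, 10278 bp for Nfe2, 5826 bp for Lyl1 and 5202 bp from the start of Dnase2a, the neighbour in the region of Klf1. The annotated genes of Tal1, Gata2 and Nfe2 are 15330, 13140 and 10192 bp long, so the summit lay just past the far end of each. Tfrc, the transferrin receptor gene, had its summit at 132 bp and a peak over the start in all 4 lists. Over all 985 regions 735 had the summit within 500 bp of a start, as given above, and whether the list differs from that was not tested. After mitosis the summit stayed far away for Gata2, at 13620 bp, Nfe2, at 10469 bp, Lyl1 and Klf1, and lay at 976 bp for Tal1 and 84 bp for Gfi1b. Gata2, Tal1, Lyl1, Klf1, Nfe2 and Gfi1b encode transcription factors of blood progenitors or red cells. Their values were modest in prometaphase, for example 10.4 and 9.70 in control and 10.4 and 11.8 with auxin for Gata2, and 35.3 to 56.2 in the 14 later libraries.

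To follow the course through G1, which the choice of regions did not use, each library's regions were ranked by highest fold enrichment, and -log2 of the rank was fitted with limma over all 15784 regions detected in the 14 libraries, coding or not. A change of 1 on this scale is a factor of 2 in rank, positive values mean a higher place, and calls are at an adjusted p (Benjamini-Hochberg) under 0.05. From early-G1 to late-G1, averaged over both conditions, 98 of the 982 fitted mitotically detected regions rose (9.98%) and 150 fell (15.3%), against 7.47% and 7.29% of all regions. The other coding regions gave 6.06% and 6.89%. Without late-G1 control replicate 3 the counts were 136 and 138.

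The excess over the background rests on the scale. With log2 fold enrichment in place of ranks, 40 of these regions rose (4.07%) and 81 fell (8.25%), against 7.03% and 8.24% of all regions, and with log2 of the pileup recovered from the deposited values 18 rose and 57 fell, against 5.94% and 8.12%. A given change in log2 rank covers few places near the top of the order, where these regions lie, and the part of this in the counts was not tested. The courses of single regions below are those that can be read from their library values.

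The largest called rises were those of Fasn, E4f1, the region of Acot8 and Zswim3, Taf13, Id1 and the histone region of Hist1h2be and Hist1h1e. Fasn, the fatty acid synthase gene, was at 35.2, 30.1, 29.4 and 25.4 in early-G1, at 53.4 to 95.9 in mid-G1 and at 69.7, 72.4, 51.8 and 54.6 in late-G1. No late-G1 library overlapped early-G1, and the rank change was 3.97 ± 0.38 (SE, limma adjusted p = 3.7e-05). E4f1, a zinc finger transcription factor gene, went from 17.5, 21.4, 26.5 and 22.4 to 52.4, 60.6, 49.2 and 41.7, again without overlap (3.95 ± 0.24, adjusted p = 4.3e-07). Taf13, a subunit of the general factor TFIID, went from 43.2, 38.0, 48.0 and 51.1 to 86.4, 82.9, 81.9 and 87.9. Id1, an inhibitor of basic helix-loop-helix factors, went from between 42.2 and 49.2 in early-G1 to between 71.3 and 92.3 in late-G1, and had reached 70.7 to 95.5 by mid-G1. All 3 of Taf13, Id1 and the region of Acot8 and Zswim3, with changes of 3.72, 3.54 and 3.77, separated the stages fully. Hist1h2be and Hist1h1e had 99.8 and 82.8 in early-G1 control and 74.5 and 66.8 with auxin, against 95 to 112 in late-G1, so the stages overlapped. On recovered pileup none of the 6 rises was called: the change was 0.43 for Fasn (adjusted p = 0.069), 0.30 for E4f1, 0.15 for the region of Acot8 and Zswim3, 0.03 for Taf13 (adjusted p = 0.94), 0.41 for Id1 and -0.06 for Hist1h2be and Hist1h1e.

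The largest called falls were those of Cdkn1a, the region of Trim17 and Hist3h2a, Mcm3, Nop58, Rpa2 and 1810032O08Rik. Cdkn1a (chr17:29227354-29238698, mm9), the p21 inhibitor of cyclin-dependent kinases, was at 89.9, 79.1, 87.7 and 92.2 in early-G1, at 63.4 to 99.1 in mid-G1 and at 50.2, 43.7, 48.7 and 50.6 in late-G1, a rank change of -3.13 ± 0.38 (SE, limma adjusted p = 0.00018). Its fall came between mid-G1 and late-G1 (-2.71, adjusted p = 0.00047). Mcm3, a subunit of the replicative helicase, fell in rank at both steps (-3.07 ± 0.26 over the whole interval, limma adjusted p = 1.1e-05). It had 40.6 to 50.6 in early-G1, 15.6 to 37.1 in mid-G1 and 17.6 to 22.4 in late-G1. The late-G1 values thus lay within the mid-G1 range, and the library values show a fall from early-G1 alone. In the Mcm3 region the prometaphase summit lay 12262 bp inside the gene and the post-mitotic one 42 bp from the start. Nop58, a core protein of box C/D small nucleolar RNPs, went from 72.9, 68.1, 79.2 and 76.4 to 36.0, 39.4, 38.8 and 42.7 (-3.00 ± 0.31, adjusted p = 5.3e-05), and Rpa2, which binds single-stranded DNA, from 42.1 to 53.1 to 13.9 to 31.4. In each of these 4 genes late-G1 lay wholly below early-G1. Trim17 and Hist3h2a also fell without overlap, from between 96.4 and 111 to between 55.3 and 91.7, but were not called on log2 fold enrichment (adjusted p = 0.12). On recovered pileup Mcm3 (-0.80) and Rpa2 (-0.66) were called and the other 4 were not, with -0.21 for Cdkn1a (adjusted p = 0.37) and -0.22 for Nop58 (adjusted p = 0.27).

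**Figure D4:**
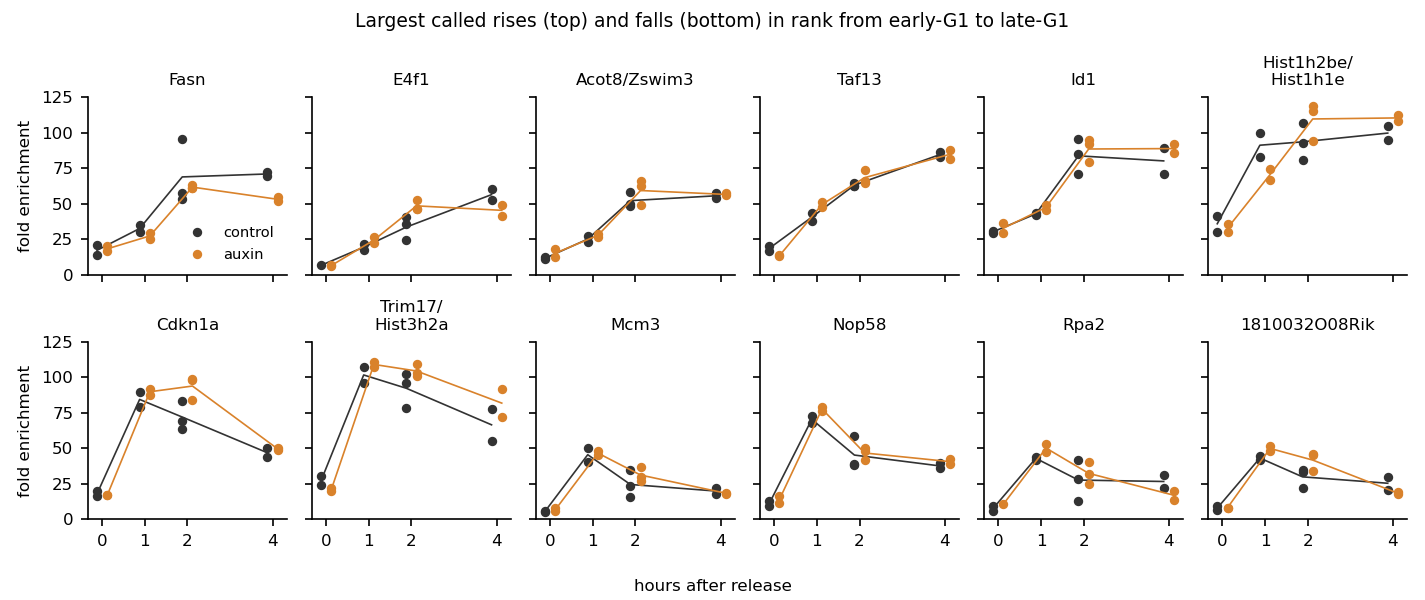
PolII fold enrichment by library against hours after release for the 6 largest called rises (top) and the 6 largest called falls (bottom) in rank from early-G1 to late-G1, with control and auxin libraries in separate colours. Fasn goes from 25.4 to 35.2 at 1 h to 51.8 to 72.4 at 4 h, and Cdkn1a from 79.1 to 92.2 to 43.7 to 50.6.

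By step, 119 of the mitotically detected regions rose (12.1%) and 133 fell (13.5%) from early-G1 to mid-G1, against 7.81% and 6.18% of all regions. From mid-G1 to late-G1 79 rose (8.0%) and 87 fell (8.9%), against 3.03% and 3.85% of all regions. On recovered pileup the first step gave 18 and 36, against 5.67% and 4.78% of all regions, and the second 1 and 3, against 0.279% and 0.988%. On log2 fold enrichment the second gave 27 and 48, against 2.57% and 3.80%. Both steps share the mid-G1 libraries, so a region that is low there is favoured to fall and then rise. That course was called in 38 regions, rise and then fall in 12, a rise at both steps in 8 and a fall at both in 9, while 631 were called at neither step.

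Tfrc (chr16:32607822-32635024, mm9) showed such a dip, at 67.3 to 78.4 in early-G1, 36.2 to 49.7 in all 6 mid-G1 libraries and 67.1 to 74.2 in late-G1, with changes of -2.80 ± 0.35 and 2.54 ± 0.35 (limma adjusted p = 0.00018 and 0.00059). Junb, a subunit of AP-1 and an immediate early gene, followed the same course, at 75.5 to 90.8, then 46.3 to 63.2, then 64.5 to 87.9 (-2.11 and 1.62). In both genes no mid-G1 library reached the other stages. These changes are on ranks. On recovered pileup only 1 mitotically detected region was called higher from mid-G1 to late-G1, so at most 1 of these rises was called there. The general factor gene Gtf2f1, a subunit of TFIIF, fell and did not return, from 79.1 to 93.5 in early-G1 to 44.3 to 53 in mid-G1 and 47.8 to 61.2 in late-G1 (-3.01 ± 0.38 for the first step, adjusted p = 0.00022). Tfrc and Gtf2f1 were named as the leading genes of their lists, Junb likewise.

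In the regions of the mitotic machinery, the genes of Cdk1, its cyclins and the proteins of spindle and chromosomes, signal in G1 was low for most. The stage mean was lowest in mid-G1 for 11 of these 15 regions, and the share over all 985 was not counted. The median of the stage means over all 985 was also lowest in mid-G1, at 38.2 against 43.2 in early-G1 and 38.6 in late-G1. Mid-G1 control replicate 1 had the lowest depth of the post-mitotic libraries, 4.54 fragments per kb, and the part of depth was not tested. Of the 15 machinery regions, 14 stood further down the order after mitosis. Over the 13 that could be fitted, the lowest limma adjusted p from early-G1 to late-G1 was 0.0645, that of Ube2c. From early-G1 to mid-G1 none rose and 4 fell: Top2a, the topoisomerase that untangles chromosomes, Cks2, a partner of Cdk1, the centrosome kinase gene Nek2 and the kinesin gene Kif11, by 2.35, 1.68, 1.26 and 0.76 as decreases in log2 rank. From mid-G1 to late-G1 3 rose, Top2a by 1.99, Cks2 by 1.91 and Kif11 by 0.92, and Ube2c, which carries ubiquitin for the anaphase-promoting complex, changed by -1.36 (limma adjusted p = 0.0023). Over all regions 7.81% rose and 6.18% fell from early-G1 to mid-G1, and 3.03% and 3.85% from mid-G1 to late-G1. These calls are on ranks. On recovered pileup only 1 mitotically detected region was called higher and 3 lower from mid-G1 to late-G1. Nek2, Kif11 and Ube2c were named after their values were seen, as the called genes of their list.

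Top2a had 21.3 and 17.4 in prometaphase control and 20.3 and 23.2 with auxin, then 44.4, 48.2, 46.5 and 42.3 in early-G1. In mid-G1 it had 13.9, 14.1 and 38.6 in control and 28.3, 26.1 and 22.8 with auxin, and in late-G1 39.8, 44.6, 41.4 and 30.8. The mid-G1 control libraries thus spread almost as widely as the stages differ. Cenpf was the clearest departure: at 12.8 and 11.2 in control and 11.9 and 11.7 with auxin in prometaphase, it had no peak in any early-G1 library, peaks of 5.24 in mid-G1 control replicate 3 and 3.90 in mid-G1 auxin replicate 2, and 8.18, 12.4, 6.23 and 7.27 in late-G1. Ect2 had 6.56, 12.3, 7.70 and 7.72 in prometaphase and stayed between 8.13 and 20.1 where it was detected later, and Ccnb2, the cyclin B2 gene, had 7.34, 7.57 and 8.09 in 3 prometaphase lists and between 8.75 and 27.7 later. The mean fold enrichment over all mitotically detected regions had a median of 43.2 in early-G1, 38.2 in mid-G1 and 38.6 in late-G1. Of the 15 mitotic machinery regions, Top2a and Cks2 lay above that median in early-G1, none in mid-G1 and Top2a, Cks2, Ccnb1 and Kif20a in late-G1.

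**Figure D5:**
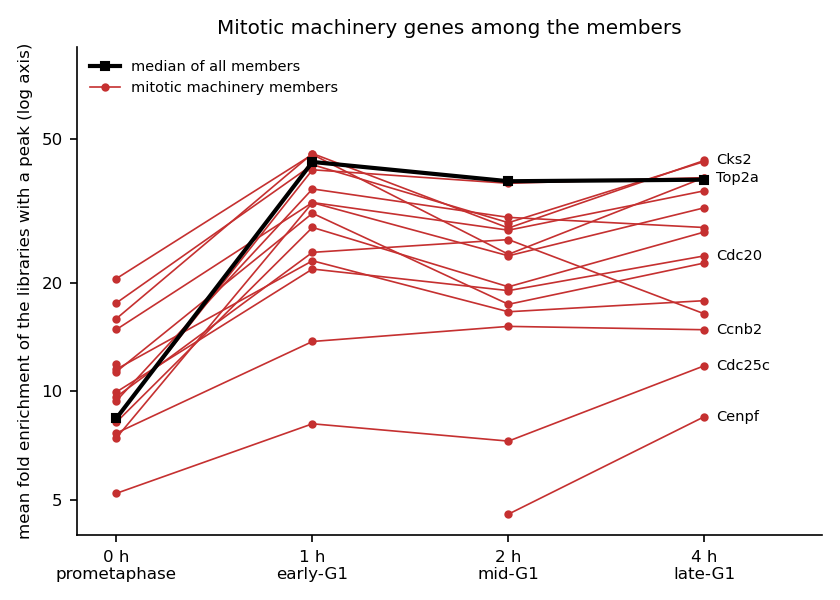
Mean fold enrichment (log axis) of 15 mitotic machinery regions at each stage, over the libraries with a peak, with the median over all 985 regions as the reference line. The reference runs 8.43, 43.2, 38.2 and 38.6, and Cenpf, which has no early-G1 peak, is at 11.9 in prometaphase and 8.51 in late-G1.

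Of the 69 ribosomal protein regions 15 were called higher and 6 lower from early-G1 to mid-G1, against 7.81% and 6.18% of all regions. From mid-G1 to late-G1 2 were called higher and 10 lower, against 3.03% and 3.85% of all regions. On recovered pileup the second step gave 1 higher and 3 lower over all 982 regions. Over the whole interval 7 were higher, among them Rplp0, Rps23 and Rpl23, and 8 lower, among them Rpl11, Rps27 and Rpl28, with a median change of -0.06. Rps9, their leading region, had 58.7 to 67.7 in early-G1, 71.4 to 93.4 in mid-G1 and 55.3 to 77.6 in late-G1. Of the 24 histone regions 2 rose and 7 fell from early-G1 to late-G1, with a median of -0.11. In this interval 7.47% of all regions rose and 7.29% fell, and 9.98% and 15.3% of the mitotically detected regions did. The histone regions are clusters whose genes lie close together and resemble each other, so single genes in them are uncertain.

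For ribosome biogenesis, Nop58, Npm1, Nop2 and Nolc1 fell among 7 regions and none rose, with a median of -0.89, while Nop56 and Ncl had changes of -0.63 and -0.56 that were not called. Npm1, the nucleolar chaperone nucleophosmin, had 52.2 to 65.0 in early-G1, 54.3 to 73.0 in mid-G1 and 36.4 to 45.8 in late-G1. Of 13 glycolytic and cytoskeletal regions 3 rose, Tuba1a, Eno1 and that of Aldoa with Ppp4c, and 1 fell, that of Actb with Fbxl18, with a median of 0.75. Actb, the cytoplasmic beta-actin gene, went from 80.4 to 95.7 and then 83.4 to 106 down to 58.9 to 70.7 in late-G1 (-1.57 ± 0.24, limma adjusted p = 0.00082). Gapdh, the glycolytic dehydrogenase, had 74.3 to 95.7 in mid-G1 and 93.1 to 106 in late-G1, and a change of 0.75 over the whole interval that was not called. The median change over all regions fitted was -0.03, with 7.47% called higher and 7.29% lower. Among the mitotically detected regions the shares were 9.98% and 15.3%. These calls rest on ranks, and on recovered pileup 18 of the 982 regions rose and 57 fell.

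Of 7 targets of p53, Cdkn1a, Aen and Ccng1 fell and Gadd45a rose, with a median of -0.88. Of the blood regulators the regions of Nfe2 and Tal1 fell, by 2.21 and 1.44 as decreases in log2 rank, and none rose. In the Nfe2 region the post-mitotic summit lay past the far end of the gene, as given above. Among 5 genes of the G1 cyclins, their kinases and E2F-Rb, Cdkn1a and E2f3 fell, and among 11 regions of PolII, general factors and Mediator Taf13 and that of Med21 rose while Gtf2f1, Gtf2b, Taf12 and that of Med22 fell. In the remaining lists, 3 of the 17 Srsf and Hnrnp regions fell (those of Srsf5, Srsf6 and Hnrnpk), 1 of the 12 translation factor regions fell (Eif3a), 1 of 7 heat shock regions rose (the divergent pair Hspe1 and Hspd1), and of 14 immediate early regions that of Ier3 rose and Myc fell. In oxidative phosphorylation Ndufa4l2 rose among 17 and in the proteasome Psmb4 among 4. Against these counts on ranks, 7.47% of all regions rose and 7.29% fell, and 9.98% and 15.3% of the mitotically detected regions did. Genes in these 2 paragraphs that do not lead their list were named after their values were seen, as the called members.

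The course was also fitted in each condition alone. In control cells 92 of the 982 regions (9.37%) were called from early-G1 to late-G1, against 3.78% of all regions. In auxin-treated cells 107 (10.9%) were called, against 4.60% of all regions. Of the 982, 44 were called in both conditions, in the same direction each time. Without early-G1 control replicate 1, early-G1 control replicate 2 or late-G1 control replicate 3 the control count was 36, 27 and 56, and without any single one of the 4 auxin libraries of these stages the auxin count was between 27 and 43. The difference between the conditions in this course, tested as an interaction, was called in 0 of the 982 regions and in 0% of all regions with limma. At an unadjusted p under 0.05 it gave 96 of the 982 and 837 of all 15784, and without late-G1 control replicate 2 it gave 18 calls.

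Auxin treatment gave few calls among these regions. Averaged over the 3 post-mitotic stages 3 of 982 rose and 3 fell, against 0.393% and 0.336% of all regions. Within one stage the calls were 0 in early-G1, 1 in mid-G1 and 2 in late-G1, against 0.0127%, 0.222% and 0.0697% of all regions. At an unadjusted p under 0.05 the counts were 67 in early-G1, 104 in mid-G1, 160 in late-G1 and 129 for the average, against 895, 1487, 1241 and 1725 of all 15784 regions. The share of 0.305% per direction for the average is close to that background. Without late-G1 control replicate 2 the counts were 52 for the average and 84 for late-G1, and without mid-G1 control replicate 3 the average gave 11. The average fell to 2 on normal scores of the rank, on log2 fold enrichment, on recovered pileup and without early-G1 control replicate 1, and to 3 without early-G1 auxin replicate 1 or late-G1 auxin replicate 2, and late-G1 fell to 0 on these 3 scales and without late-G1 control replicate 3 or late-G1 auxin replicate 2. The fit takes the libraries as unpaired. Same-numbered libraries deviated together in mid-G1 (correlations of 0.10 to 0.29) but not in early-G1 and late-G1 (0.01), and with a replicate block the counts were 9 for the average, 1 in early-G1, 6 in mid-G1 and 2 in late-G1. The changes were small in most regions: the absolute change in log2 rank was under 1 in 93.6% of them in early-G1, 94.1% in mid-G1, 81.7% in late-G1 and 97.9% for the average, where the median standard error was 0.25. None of the 16 gene lists had a region called for the average. An F test of whether the auxin effect differed between the 3 stages called 0 of these regions and 0 of all, with 98 and 783 at an unadjusted p under 0.05.

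The regions higher with auxin were those of Rfc3, B230219D22Rik and Lactb2. Rfc3 (chr5:152451814-152454920, mm9), a subunit of the clamp loader for DNA replication, had 39.0 and 38.6 in early-G1 control against 53.1 and 51.1 with auxin, and 15.6, 18.7 and 28.2 in mid-G1 control against 49.5, 43.9 and 31.5. In late-G1 it had 18.4 and 33.2 in control and 31.0 and 35.6 with auxin. The conditions separated in early-G1 and mid-G1 and overlapped in late-G1, and the average change was 1.69 ± 0.26 (SE, limma adjusted p = 0.0055), called in all 20 alternatives tried. B230219D22Rik had 24.2, 32.2 and 46.5 in mid-G1 control against 51.6, 52.8 and 52.8 with auxin and 24.8 and 30.2 in late-G1 control against 37.7 and 39.0 (average 1.18, adjusted p = 0.014, called in 13 of 20 alternatives, late-G1 alone 2.44). Lactb2 changed by 0.81 (adjusted p = 0.023, called in 9 of 20).

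The regions lower with auxin were those of Rdm1, Ccnb1ip1 and Mat2b. Rdm1 (chr11:101487643-101492421, mm9), the gene of a protein with a RAD52 motif, was the sixth strongest in prometaphase and had 120.5, 93.0 and 115.5 in mid-G1 control against 66.0, 66.6 and 68.7 with auxin. In early-G1 it had 108 and 90.4 in control and 100.1 and 88.1 with auxin, and in late-G1 115 and 95.3 against 108 and 105, so the conditions separated in mid-G1 alone, where the change was -3.88 (limma adjusted p = 0.00061). Over the 3 stages it was -2.13 ± 0.29 (adjusted p = 0.0019), and on log2 fold enrichment -0.28 (adjusted p = 0.53). Its summit lay 974 bp inside the gene. Ccnb1ip1 had 22.6 and 17.7 in early-G1 control and 13.3 and 9.90 with auxin, 20.4 to 21.1 against 8.67 to 14.6 in mid-G1, and 20.1 and 43.4 against 15.0 and 15.2 in late-G1, with no overlap at any stage (-1.32, adjusted p = 0.036, called in 8 of 20 alternatives). Mat2b, the regulatory subunit that partners Mat2a, had 37.2 and 56.1 in late-G1 control against 25.7 and 27.5 with auxin, while the conditions overlapped in early-G1, at 35.7 and 32.7 against 37.6 and 34.0, and in mid-G1, at 18.4 to 24.2 against 22.4 to 24.3 (average -0.89, adjusted p = 0.047, called in 3 of 20). Tmem179b was called in late-G1 alone, at 45.5 and 58.6 against 31.8 and 27.5 (-2.07). On normal scores, log2 fold enrichment, recovered pileup and with a mean-variance trend no region was called in late-G1 alone, Tmem179b and B230219D22Rik included.

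Of the genes for CTCF and cohesin, Smc3, a core cohesin subunit, and Mau2, part of the cohesin loader, lay in mitotically detected regions, and Ctcf, Rad21, Nipbl, Wapal, Pds5a, Stag2 and Smc1a were detected after mitosis and did not. Smc3 had 25.1 and 19.9 in prometaphase control and 19.8 and 16.5 with auxin. It had 62.8 and 58.1 in early-G1 control against 74.4 and 88.4 with auxin, 43.8, 52.3 and 70.1 against 67.5, 75.8 and 76.8 in mid-G1, and 63.6 and 55.1 against 69.2 and 65.9 in late-G1. The auxin libraries overlapped the control libraries in mid-G1, and the average change of 1.06 ± 0.27 was not called (limma adjusted p = 0.10).

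The mitotically detected regions were unevenly spread over chromosomes. They were 24.4% of the coding regions detected throughout on chromosome 1 (100 regions in all) and 27.9% on chromosome 3 (91 regions), and between 7.61% and 18.8% on every other chromosome. Local background relative to the rest of the library was 1.27 on chromosome 1 in prometaphase and 1.40 after mitosis, and 1.00 on chromosome 3 in both. The median place of coding regions after mitosis was also nearer the top on these 2 chromosomes, at 36.2% and 33.4%, and 44.0% or more on every other. The study left chromosome 3 out of its compartment analysis because of a translocation. The part of the background or of the translocation in these shares was not tested. Outside both chromosomes 793 regions remained, 12.9% of the coding regions there, and 79 of these rose and 114 fell from early-G1 to late-G1, against 19 and 36 of 189 on chromosomes 1 and 3.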

How the data were processed

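PolII ChIP-seq was analysed from 18 peak lists of 22 samples; the 4 input samples have no file here. Per the labels and the study's methods, the authors aligned reads to mm9 with Bowtie2 2.2.9, removed duplicates and blacklisted reads with SAMtools 0.1.19 and bedtools 2.27.1, and called peaks in each library with MACS2 2.1.0 at a q-value of 0.01. The deposited values are the fold enrichment at the summit (a ratio to local background), its −log10 p-value and q-value, a whole-number score from the latter and the summit's offset. The score was not used, and read counts were not used here, so the study's count model was not run.

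Peaks were merged at 1 bp overlap, and coding gene starts were taken from GENCODE vM1 (22380 coding genes). Regions detected in all 14 post-mitotic libraries (15784) were fitted as −log2 rank of their highest fold enrichment with limma 3.58.1 (R 4.3.3), as 6 group means without covariates, with Benjamini-Hochberg adjustment over all regions. The fit was tested on simulated data. Dropped regions, 3 of the 985, have no test. Pileup was recovered from the deposited fold enrichment and −log10 p-value, and was whole within 0.05 for 100% of peaks; it gave each library's depth, and reads without duplicates cap it at 2 times the fragment length. Intervals from depth were not computed, since peak lists hold no totals.

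The regions and gene lists were chosen with earlier results of these data known. Named by rule were the 12 strongest regions in prometaphase, the 6 largest called changes per direction from early-G1 to late-G1 and with auxin, up to 3 leading regions per gene list, the 3 regions on each side of the rule's edge, those missing from a post-mitotic library, and the 3 widest and 3 with the most starts. Alternatives tried were the peak overlap, a stricter −log10 q-value of 4, all coding transcript starts, detection in all 4 lists, other scales, ranks among coding regions, a mean-variance trend, a replicate block and each library left out.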

Additional observations from a re-analysis of the deposited data

Results flagged for a closer look

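Of the mitotically detected regions named for their change through G1, 3 had auxin effects of opposite sign in different stages with every auxin library's rank on the same side of every control library's rank within the stage. With so few libraries per condition such separation often arises without a difference. Its share over all 982 regions was not counted, so these 3 regions are a description and not a result beyond that background. The differences between stages were not tested for these genes one by one, and the F test over the 3 stages called 0 of the 982 regions. E4f1 was higher in rank with auxin in mid-G1 (log2 rank change 0.76) and lower in late-G1 (-0.41). Nop58 was higher in early-G1 (0.27), lower in mid-G1 (-0.78) and higher in late-G1 (1.38). On fold enrichment its libraries overlapped in mid-G1, at 38.4 to 58.6 in control and 41.9 to 50.2 with auxin, and in late-G1, at 36.0 and 39.4 against 38.8 and 42.7. 1810032O08Rik was higher in early-G1 (0.26) and lower in late-G1 (-0.25). No group had the 4 libraries that a search for a single outlying library needs.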

How the results depend on the processing

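Peak lists limit what can be seen to regions past each library's threshold. Requiring a prometaphase peak over the annotated start in at least 3 lists left 428 of the 985 regions. Leaving out 1 prometaphase list and requiring 2 of the other 3 gave 1144 to 1325. The auxin count of 6 for the average was 2 on normal scores of the rank, on log2 fold enrichment and on recovered pileup, and 3 with a mean-variance trend, and 2 to 52 without 1 library. In early-G1 alone (0) it was 1 with ranks among coding regions and 0 to 3 without 1 library. In mid-G1 alone (1) it was 0 on normal scores and 2 with the trend, and 1 to 5 without 1 library. In late-G1 alone (2) it was 0 on normal scores, log2 fold enrichment, pileup and with the trend, 1 with ranks among coding regions and in the regions of all 4 lists, and 0 to 84 without 1 library. The largest of these ranges come from leaving out late-G1 control replicate 2 (52, 84 and, for the difference in course, 18 against 0).

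For the course, normal scores, log2 fold enrichment and pileup gave 126, 121 and 75 of 248 from early-G1 to late-G1 (168 to 274 without 1 library), 28, 33 and 8 of 92 in control (27 to 134) and 26, 30 and 14 of 107 with auxin (27 to 149). They gave 120, 131 and 54 of 252 from early-G1 to mid-G1 (158 to 294, the lowest without early-G1 control replicate 2) and 71, 75 and 4 of 166 from mid-G1 to late-G1 (104 to 190, the lowest without late-G1 auxin replicate 1). Ranks among coding regions gave 61 in control and 67 with auxin, and the regions of all 4 lists 70 with auxin. The cause was not tested. Of 240 comparisons of the named G1 courses with an alternative 228 kept direction and call, 11 lost the call and 1 reversed (Hist1h2be and Hist1h1e on pileup, -0.060). Of these 12 courses recovered pileup kept the call for Mcm3 and Rpa2 alone. Of 120 for the named auxin changes 70 kept it and 50 lost it.

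The replicate numbers were not treated as pairs, since deviations of same-numbered libraries correlated at 0.01 in early-G1 and late-G1, and at 0.10 to 0.29 in mid-G1, where 5 of 6 libraries correlated best with their own number. With a replicate block the auxin counts were 9 for the average, 1 in early-G1, 6 in mid-G1 and 2 in late-G1, and 216 were called from early-G1 to late-G1.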
